A study of Caenorhabditis elegans with 18 samples.

Results

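The 2346 intervals described here are stretches of chromosome IV in the 2 regions that hold most piRNA genes of Caenorhabditis elegans. They were chosen by position alone, as every interval of the count table that starts between 4.5 and 7.0 Mb or between 13.5 and 17.2 Mb of chromosome IV (build ce11), on either strand. The table held 75393 features, of which 55259 were such unnamed intervals and the others were annotated genes. Of the cluster intervals, 815 lay in the first window and 1531 in the second, with 1172 on the plus and 1174 on the minus strand. Whether positions in the table count from 0 or from 1 was not given in the sources used here, so an edge may be off by 1 base.

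Small RNAs were sequenced from extracts of whole worms staged at L4, the last larval stage, and grown at 15 °C. The 3 strains carried 1xFLAG::WAGO-1, 1xFLAG::WAGO-1 together with dpf-3{delta}, or 1xFLAG::WAGO-3, so every strain had a FLAG tag on an Argonaute and the deletion of dpf-3 was present in 1 of them. Each strain gave 3 immunoprecipitates (IP, the RNA recovered with anti-FLAG beads) and 3 inputs, named A, B and C, which makes 18 libraries in 6 groups. No untagged strain was immunoprecipitated, no dpf-3 deletion was combined with tagged WAGO-3, and the input RNA alone went through a small RNA enrichment step, so that difference cannot be told apart from the IP. The labels do not say whether the libraries of a group came from separate cultures, and p-values measure the spread between these libraries only.

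In the C. elegans germline, piRNAs (also called 21U RNAs) are made from a great many short genes, each transcribed on its own, and are carried by the Argonaute PRG-1. When PRG-1 finds a matching transcript, RNA-dependent RNA polymerases make 22G RNAs from it, antisense to the transcript and with a 5' triphosphate, and these are loaded onto the worm-specific Argonautes, WAGO-1 and WAGO-3 among them. DPF-3 is a peptidase of the dipeptidyl peptidase family that trims the start of both of these WAGO proteins. The libraries were made after a treatment that lets RNAs with a 5' triphosphate enter, so they can hold both kinds of small RNA.

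The piRNA genes themselves lay almost entirely outside the intervals. The intervals covered 8.93% of the bases of the windows but touched 216 of the 14204 piRNA genes that RefSeq (WBcel235, the same build as ce11) places there, or 1.52%. Conversely, 165 of the 2346 intervals, 7.03%, overlapped at least 1 piRNA gene by at least 1 base on either strand, since the gene table gives no strand. Of these, 115 shared only part of a piRNA gene and 50 contained a whole one. A protein-coding gene was overlapped by 1022 intervals, a pseudogene by 98, and no annotated gene of any kind by 1102. The label "piRNA cluster" therefore describes where the intervals lie, and not what was counted in most of them.

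Most cluster intervals were nearly empty and a few held most reads. Over the 18 libraries 493351 reads fell in them, 912 intervals had no read and 1804 had fewer than 10. The highest interval took 27.4% of the reads, the 2 highest 45.0% and the 10 highest 66.3%, and 44 intervals held 90% of them. After a filter on low counts, 142 intervals could be tested, 34 in the first window and 108 in the second, and these held 95.9% of the reads. Tested intervals had a median length of 431 bases against 134 for the others, and a long or abundant interval is more likely to pass, so counts over the 142 do not speak for all 2346. Depth differed by kind of library: IPs held 2206087 to 5649896 feature counts with 29570 to 87804 in cluster intervals, and inputs 88761 to 517278 with 554 to 6567, so an input value rests on far fewer reads.

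Cluster intervals took a larger share of all feature counts in each IP than in its input, and a smaller share in the dpf-3 deletion. For WAGO-1 the share was 1.61% ± 0.0449 (SD, n = 3) in the IP and 1.25% ± 0.0285 in the input. With the deletion the values were 0.576% ± 0.0471 in the input and 0.809% ± 0.00441 in the IP, and for WAGO-3 they were 0.862% ± 0.0388 and 1.34% ± 0.00479. Each of these pairs of groups was fully apart, with a two-sided exact permutation p of 0.1, the smallest that 3 against 3 libraries can give, and 0.113 after adjustment over the 18 share comparisons made.

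Among interval counts alone, the picture was different. Cluster intervals made up 5.16% ± 0.144 of all interval counts in the WAGO-1 IP (SD, n = 3) and 4.72% ± 0.144 in its input, and 6.72% ± 0.00639 and 6.92% ± 0.524 in the deletion. The deletion groups lay above the intact ones in both IP and input, fully apart (exact permutation p = 0.1 for each, the smallest possible), so the counts of the intervals elsewhere were lower with the deletion by a larger factor than those of the clusters. IP and input overlapped in the deletion (exact permutation p = 0.7) and for WAGO-3 (5.82% ± 0.0417 and 6.07% ± 0.224, exact permutation p = 0.2). Without the 2 highest intervals, a choice made after seeing the data, the WAGO-1 IP mean lay below that of its input, with a log2 ratio of -0.06.

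**Figure D1:**
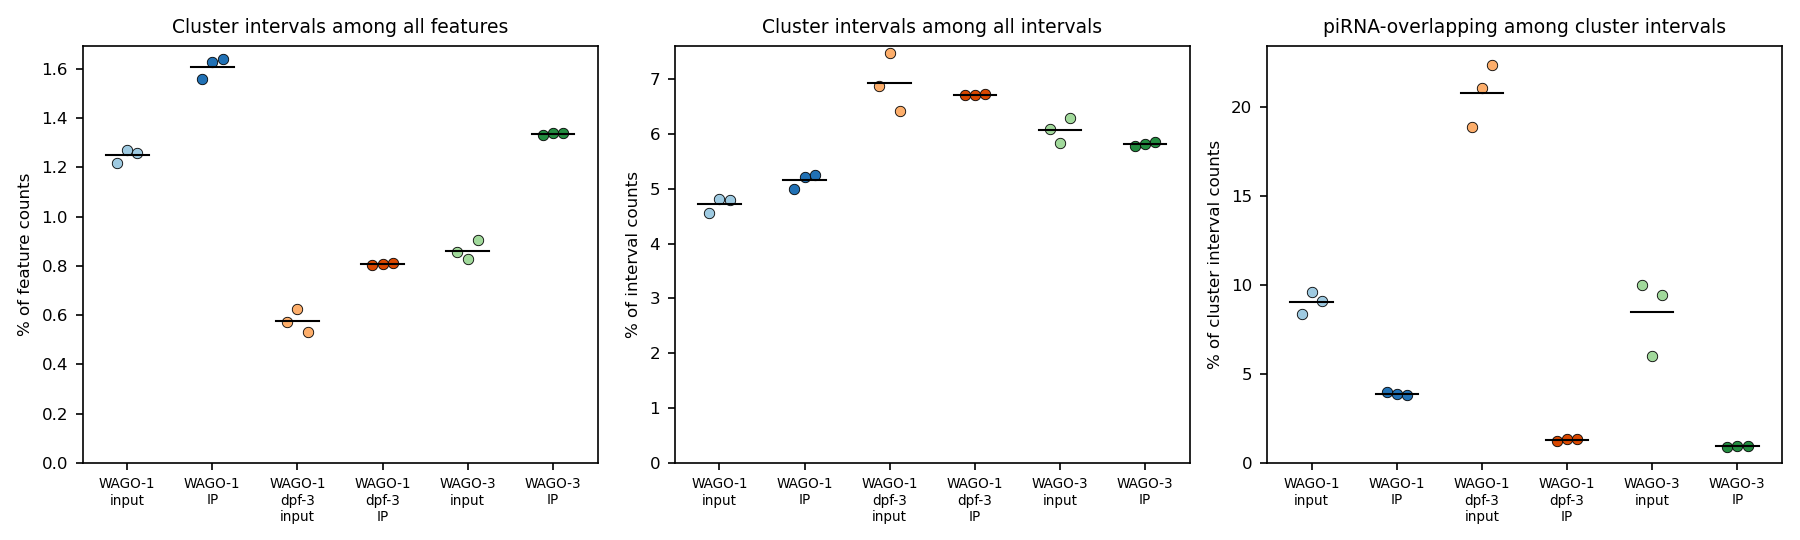
Share of counts in percent for each library (points) with the mean of 3 (line), for cluster intervals among all features, for cluster intervals among all intervals, and for intervals overlapping a piRNA gene among cluster intervals. In the third panel every IP library lies below every input library of its strain, and the deletion input is highest at 20.8%.

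Shares over all 165 overlapping intervals, which no filter touches, were lower in each IP than in its input. For WAGO-1 they held 9.02% ± 0.644 (SD, n = 3) of cluster interval counts in the input and 3.89% ± 0.0758 in the IP, 20.8% ± 1.77 and 1.28% ± 0.0678 in the deletion, and 8.48% ± 2.16 and 0.917% ± 0.0299 for WAGO-3. Each input group lay wholly above its IP group (exact permutation p = 0.1, the smallest possible). In the WAGO-1 and WAGO-3 IPs most of these reads came from 1 interval, chrIV:16254069-16254628 on the plus strand. In the deletion IPs it gave fewer than the others, with 545, 458 and 584 reads in all and 404, 337 and 402 without it. Without this interval the log2 ratios of IP to input went from -1.21, -4.03 and -3.21 to -4.11, -4.48 and -4.71. The other 164 intervals together had 140, 268 and 300 reads in the 3 WAGO-1 IPs and 129, 385 and 257 in the 3 far shallower inputs.

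The tested cluster intervals called lower in the IPs were almost wholly intervals that overlap a piRNA gene. How intervals came to be tested bears on this: of the 32 tested that overlap a piRNA gene, 30 passed the filter on low counts through 3 or more inputs and not through 3 IPs, so a low IP value was largely fixed for them and the calls below are no support for it. For WAGO-1, 86 of 142 were called higher in the IP and 28 lower (quasi-likelihood test of edgeR, adjusted by the Benjamini-Hochberg method over all 11648 features tested), where 43.2% of all features were higher and 24.9% lower. Of the 28, 27 overlapped a piRNA gene, and of the 86 only 2 did. Among cluster intervals that passed through the inputs alone, 27 of the 30 that overlap a piRNA gene and 0 of the 15 that do not were called lower, against 45.9% of the 3100 features that passed in this way. Counts scaled by library totals alone gave 40 higher and 36 lower, against 12.3% and 48.8% of all features, and 30 of the 36 overlapped a piRNA gene. That scaling moved the median log2 fold change of all features by -1.44, from 0.52. With TMM the same median was 0.11, 0.09 and 0.06 without WAGO-1 IP A, B or C. It was 0.09 when only the groups compared were fitted, so the size of these fold changes also depends on the libraries kept.

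In the other IPs the calls divided in the same way, under the same limit. The 32 tested intervals that overlap a piRNA gene are the same ones, and 30 passed the filter through the inputs only, so these calls are no support either. In the deletion strain 55 cluster intervals were higher and 30 lower in the IP than in the input (background 32.9% and 21.2%), and 27 of the 30 overlapped a piRNA gene. For WAGO-3 it was 91 higher and 30 lower (background 34.8% and 26.8%), with 28 of the 30 overlapping one. Scaled by library totals, the counts were 24 and 36 in the deletion (background 12.8% and 37.0%) and 56 and 36 for WAGO-3 (background 10.2% and 52.1%), with shifts of the median feature of -1.07 and -1.62.

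As a description of the 32 tested intervals that overlap a piRNA gene, and not of all 165, the median log2 fold change from input to IP was -4.82 for WAGO-1, -4.54 in the deletion and -5.66 for WAGO-3. For 7, 2 and 15 of them 1 of the groups had no read at all, and with those set at the limit that 3 counts over the group allow, the medians were -4.16, -4.54 and -3.83. The 110 tested intervals that overlap none had medians of 1.85, 2.09 and 2.45. For comparison, of 203 tested intervals of chromosome IV outside the windows 6 were lower in the WAGO-1 IP, or 2.96%, and of 1434 on other chromosomes 57 were, or 3.97%. Outside the windows only 34 of the intervals overlapped a piRNA gene and 1 of those was tested, so the division could not be examined there.

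**Figure D2:**
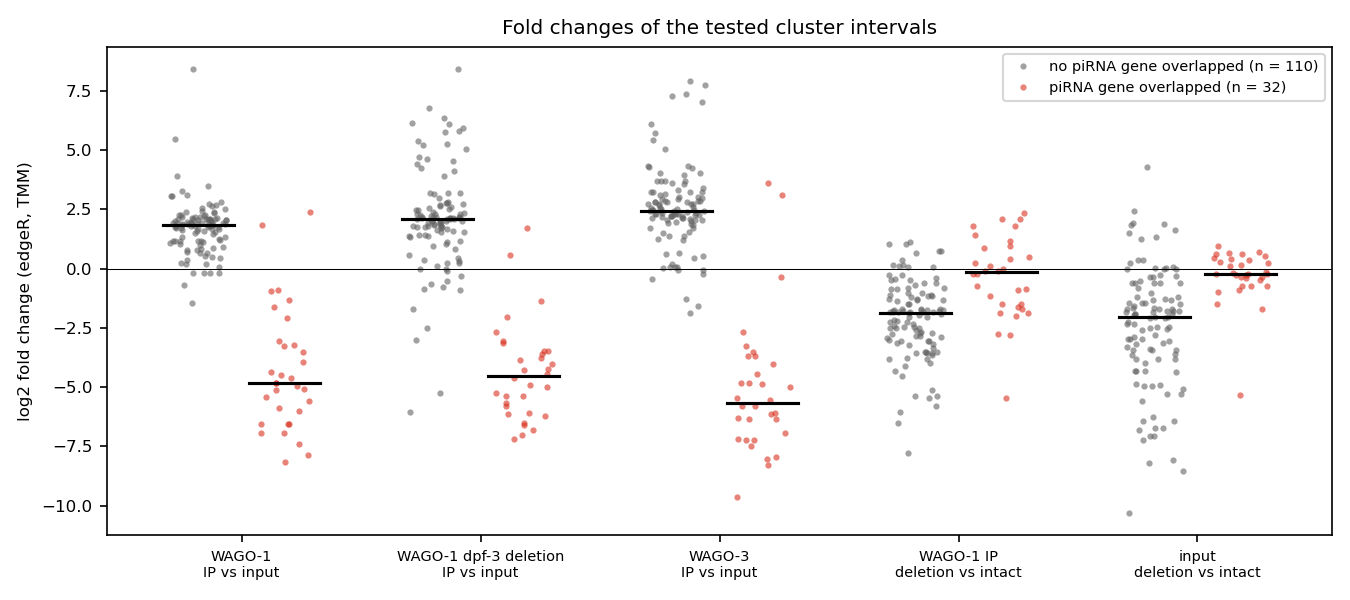
Fold change on the log2 scale from edgeR for the 142 tested cluster intervals (points; lines are medians) in 5 comparisons, split by whether the interval overlaps a piRNA gene. Points beyond about 5 in size mostly have a group with few or no reads, where the fitted value is no bound. The 32 overlapping intervals, of which 30 passed the filter on low counts through the inputs alone, have a median of -4.82 in WAGO-1 IP against input, and the 110 others 1.85.

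The overlap that marked these intervals was small. Of the 32 tested, 30 shared only part of a piRNA gene, and the longest stretch shared with any 1 gene ranged from 1 to 21 bases with a median of 10.5. The intervals had a median length of 164 bases, against 612 for the 110 others, with 16 on each strand. Their median level over the 32, which the filter holds above a minimum in the inputs, was 8.79 CPM (counts scaled to a common library size, corrected by TMM factors) in the input for WAGO-1, 8.64 with the deletion and 9.34 for WAGO-3, and was 0.31, 0.378 and 0.204 CPM in the corresponding IPs. So low a level corresponds to few reads in the shallow inputs, and the calls rest on small counts.

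The clearest example was chrIV:16901589-16901613 on the minus strand, 24 bases long, which shares 14 bases with the piRNA gene 21ur-1216 and lies in the pseudogene Y116A8C.1. The WAGO-1 IPs held 0, 0 and 1 read there and the shallower inputs 14, 48 and 30. The deletion IPs held 2, 2 and 2 reads and its inputs 9, 13 and 14, and the WAGO-3 IPs held 1, 1 and 0 against 21, 26 and 34. The rule that named intervals by their change asked for groups fully apart, so that separation, for this and the other intervals named by change, is no finding. The input level was 423 times the WAGO-1 IP level, with a 95% interval of 74.0 to 16900 that covers counting error only.

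chrIV:17033431-17033736 on the plus strand shares 11 bases with 21ur-2464. It had 0, 1 and 4 reads in the WAGO-1 IPs and 13, 42 and 16 in the inputs, and none in the 3 WAGO-3 IPs against 23, 19 and 16 in their inputs, at least 80.1-fold lower in the WAGO-3 IP. chrIV:5717456-5717543 on the minus strand touches 4 piRNA genes (21ur-1012, 21ur-385, 21ur-3069 and 21ur-13960) and had no read in any WAGO-1 IP against 5, 10 and 10 in the inputs, at least 38.3-fold lower. chrIV:14005470-14005798 on the plus strand lies in egl-23, which encodes a potassium channel subunit, and shares 8 bases with 21ur-4279. It had 0, 5 and 3 reads in the WAGO-1 IPs and 8, 25 and 19 in the inputs. In all 3, reads were few or none in the WAGO-1 IPs.

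An interval of the opposite kind was chrIV:16254069-16254628 on the plus strand, which shares 13 bases with 21ur-8977 at its edge and held 9505 of the 13420 reads of all 165 overlapping intervals. Its level was 1190, 1180 and 1140 CPM in the WAGO-1 IPs and 282, 363 and 319 CPM in the inputs, a log2 fold change of 1.83 ± 0.093 (SE; edgeR adjusted p = 4.01e-39). The other overlapping interval that rose in the WAGO-1 and WAGO-3 IPs, chrIV:14638071-14639328 on the plus strand, is named here after its value was seen. Of the 28 intervals lower in the WAGO-1 IP, the 1 that overlaps no piRNA gene was chrIV:4715980-4720732 on the plus strand, lower by a log2 fold of only -0.68.

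The 10 most abundant cluster intervals were higher in each of the 3 IPs than in the matching input, with log2 fold changes from 1.36 to 2.81. The highest, chrIV:6343546-6347549 on the minus strand, is 4003 bases long and overlaps the protein-coding gene Y73B6BL.289. It stood at 9960, 10200 and 10200 CPM in the WAGO-1 IPs and 2240, 2650 and 2460 CPM in the inputs (log2 fold change 2.04 ± 0.069 SE, edgeR adjusted p = 1.37e-56). In WAGO-3 it stood at 7630, 7670 and 7270 CPM in the IPs and 1380, 1420 and 1510 CPM in the inputs. It was also the highest of the 10 most abundant per length, at 990 CPM per kb averaged over the 6 groups.

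The second, chrIV:16239895-16243976 on the plus strand, overlaps no annotated gene and is 4081 bases long. Its WAGO-1 IPs were at 6110, 6200 and 6320 CPM and the inputs at 1390, 1550 and 1510 CPM. No IP library of either protein overlapped an input library of its strain at these 2 intervals. With library totals as the scaling the fold changes of the 10 ran from -0.27 to 1.39, and the 1 that turned negative was the third in level, chrIV:13815051-13817387 on the plus strand, in the WAGO-3 comparison (1.36 with TMM).

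Among the 10 were chrIV:17006862-17007899 on the plus strand, over rom-4, a rhomboid family gene, at 857 ± 59.4 CPM in the WAGO-1 IP and 193 ± 37.2 CPM in the input (SD, n = 3). chrIV:16007914-16009154 on the plus strand lies over jac-1, which encodes a catenin of cell junctions, and stood at 566 ± 2.42 and 148 ± 27.3 CPM. chrIV:6706983-6708305 on the plus strand, over the pseudogene Y73B6A.6, stood at 723 ± 28.1 and 185 ± 30 CPM. The other 5, none with an annotated gene, ran from 545 ± 40.7 to 1680 ± 62.9 CPM in the WAGO-1 IP and from 149 ± 8.47 to 368 ± 20 CPM in the input.

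**Figure D3:**
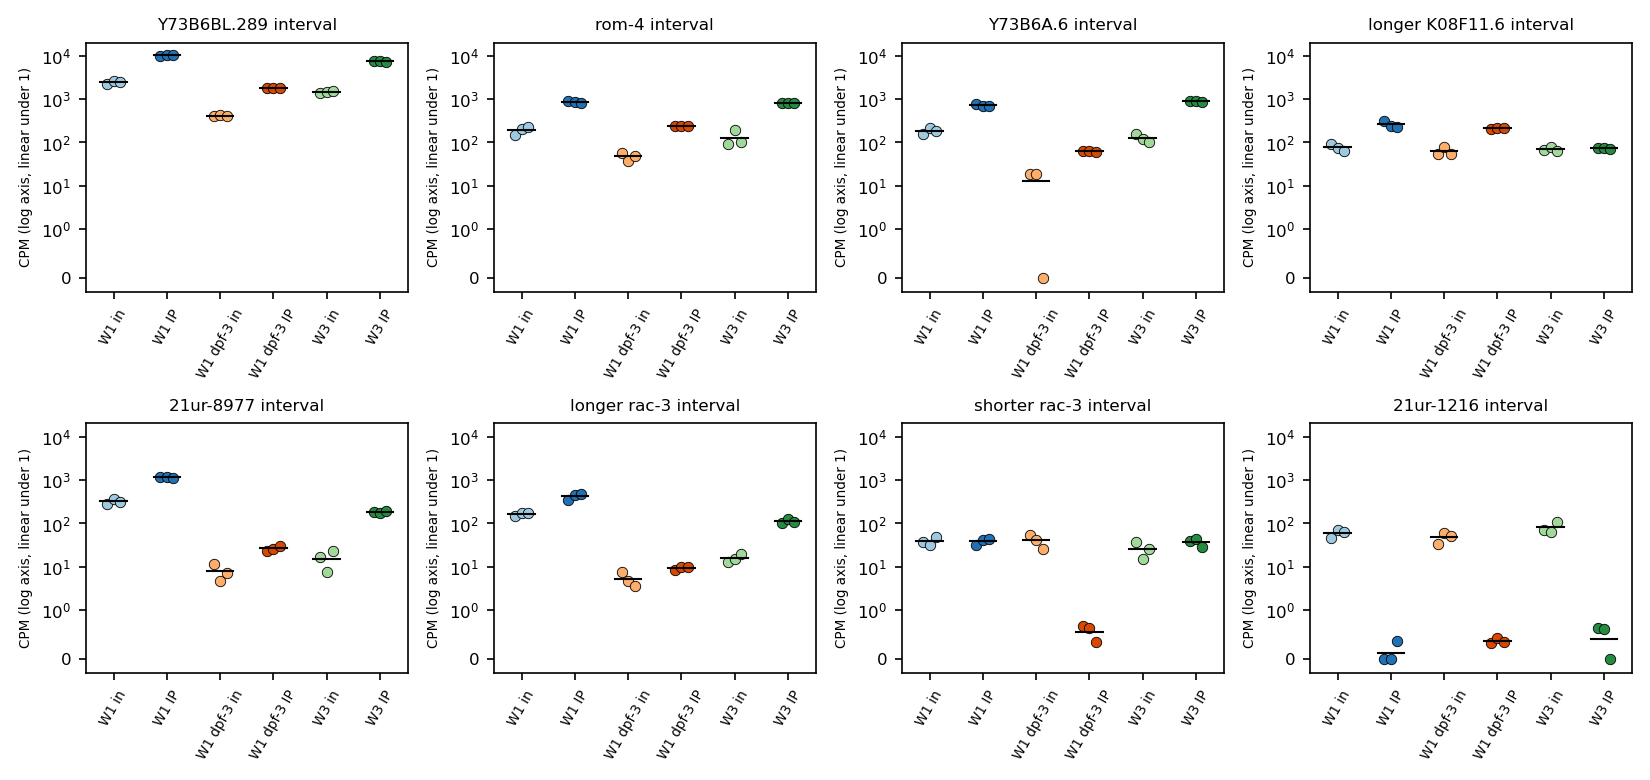
Level in CPM of 8 cluster intervals in each library (points, log axis that is linear under 1; lines are means of 3), named by the gene each overlaps; W1 and W3 are WAGO-1 and WAGO-3, in is input. The 21ur-1216 interval is at or under 1 CPM in every IP and above 30 CPM in every input, and the 21ur-8977 and longer rac-3 intervals drop in both deletion groups.

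With the deletion of dpf-3, most tested cluster intervals were called lower in the IP and fewer than that in the input, and most of those called lower did not overlap a piRNA gene. In the WAGO-1 IPs 99 of 142 were lower and 5 higher with the deletion (edgeR; background 31.8% lower and 30.6% higher; 9 and 8 higher without intact IP A or C), and in the inputs 58 were lower and 1 higher (background 14.9% and 8.61%). All 58 that were lower in the inputs were among the 99, of which they made up 58.6%. The 2 comparisons share no library, but they compare the same 2 strains within 1 fit and are not separate checks. The overlap of calls over all features was not worked out. Library totals as the scaling gave 74 lower and 20 higher in the IPs (background 16.9% and 69.2%) and 44 and 6 in the inputs (background 10.2% and 29.1%), shifting the median feature by 1.12 and 0.76.

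Of the 99 lower intervals 93 overlapped no piRNA gene, and of the 58 lower in input 57 did not. The 32 overlapping ones had median log2 fold changes of -0.15 in the IPs and -0.22 in the inputs, with 6 and 1 lower and 0 higher, and with library totals the medians were 0.58 and 0.54. Their few reads in the IPs limit what was detectable, and 30 of the 32 passed the filter through the inputs alone. With the 8 that had a group at 0 in the IPs set at their limit the IP median was -0.08. The 110 others had medians of -1.86 and -2.03, the second being -1.48 with 23 intervals at their limit, and -0.77 and -1.27 with library totals. Outside the clusters, 181 of 203 tested intervals elsewhere on chromosome IV and 1203 of 1434 on other chromosomes were also lower in the deletion IP. Annotated genes inside the windows behaved otherwise, with 158 higher and 70 lower of 496 tested.

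**Figure D4:**
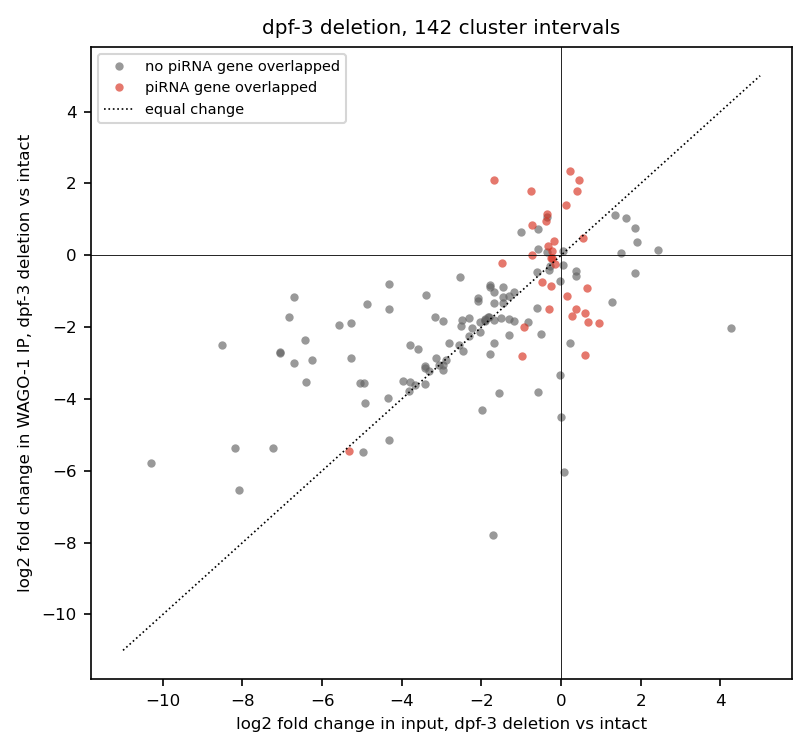
Change with the dpf-3 deletion for the 142 tested cluster intervals, as log2 fold change in the inputs (x axis) and in the WAGO-1 IPs (y axis), with the line of equal change dotted. The 110 intervals without a piRNA gene mostly lie in the lower left, with medians of -2.03 and -1.86, and those with one lie around 0 in the inputs, apart from the 21ur-8977 interval at -5.33 and -5.46.

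The most abundant interval, over Y73B6BL.289, went from 9960, 10200 and 10200 CPM in the intact IPs to 1840, 1790 and 1800 CPM in the deletion IPs (log2 fold change -2.49 ± 0.068 SE, edgeR adjusted p = 2.8e-68). In the inputs it went from 2240, 2650 and 2460 CPM to 414, 427 and 402 CPM (-2.57 ± 0.093, edgeR adjusted p = 3.06e-53). The groups did not overlap in either case, and with TMM the size of the change was nearly the same in IP and input. That near equality depends on the scaling. Library totals shifted the median of all features by 1.12 in the IPs and 0.76 in the inputs, and all counted reads by 1.25 and 0.21.

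Some intervals lost far more. The 21ur-8977 interval went from a mean of 1170 CPM in the intact IPs to 23.5, 25.6 and 30.6 CPM in the deletion IPs (log2 fold change -5.46 ± 0.095 SE, edgeR adjusted p = 2.27e-90) and from 322 to 7.87 CPM in the inputs. chrIV:16314470-16314850 on the plus strand, the longer of a pair of intervals over the pseudogene rac-3, went from 351, 446 and 470 CPM to 8.67, 9.74 and 10.1 CPM in the IPs (-5.48 ± 0.11 SE, edgeR adjusted p = 7.67e-82). It also dropped from 151, 176 and 174 CPM to 7.66, 4.74 and 3.69 CPM in the inputs. In both cases every deletion library lay under every intact one, which the rule that named these intervals required.

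chrIV:16762472-16765456 on the plus strand, with no annotated gene, went from 354, 320 and 329 CPM to 6, 4.87 and 6.72 CPM in the IPs, and had no read in the 3 deletion inputs against 63.9, 94.1 and 109 CPM, at least 23.0-fold lower. chrIV:13635953-13636420 on the plus strand fell from 78.8, 53.3 and 59.9 CPM to 0.834, 0.212 and 0.672 CPM in the IPs (log2 fold change -6.53 ± 0.24 SE, edgeR adjusted p = 1.41e-52). chrIV:16706164-16706701 on the minus strand fell from 477, 268 and 231 CPM to 31.2, 24.1 and 23.8 CPM. All 3 groups of deletion IPs lay below their intact IPs, which the naming rule required for chrIV:16762472-16765456 and chrIV:13635953-13636420. In the WAGO-3 IPs these 5 intervals stood between 3.83 and 190 CPM, below every intact WAGO-1 IP library at the same interval. Their mean levels in the WAGO-3 inputs were, in the order named, 15.6, 15.9, 7.37, 1.09 and 2.48 CPM. In the intact WAGO-1 inputs the means were 322, 167, 89, 19.3 and 44.9 CPM. The WAGO-3 strain does not carry the deletion, so levels below the intact WAGO-1 strain were not particular to the deletion strain.

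A few intervals moved little or rose. chrIV:4726995-4728022 on the minus strand and its direct neighbour chrIV:4726885-4726994, both lie over the pseudogene K08F11.6 and may share reads. The longer stood at 313, 243 and 228 CPM in the intact IPs and 206, 212 and 214 CPM in the deletion IPs (log2 fold change -0.29 ± 0.083 SE, edgeR adjusted p = 0.00133), and the shorter at 157, 151 and 156 CPM against 176, 166 and 157 CPM, with no call. chrIV:17031209-17031322 on the minus strand, with no annotated gene, stood at 90.3, 104 and 128 CPM against 85.9, 92.1 and 96.4 CPM and was called lower (-0.26 ± 0.095 SE, edgeR adjusted p = 0.0134). The deletion and intact IPs overlapped for the shorter K08F11.6 interval and for chrIV:17031209-17031322 and not for the longer one. With library totals, which shift the median feature by 1.12, the 3 were higher with the deletion, by log2 0.85, 1.24 and 0.88 in this order. Without any 1 of the 3 intact IPs the longer K08F11.6 interval had log2 fold changes of 0.08 to 0.31. For chrIV:17031209-17031322 they were 0.13 to 0.36, so neither lower call held. Leaving out 1 of these IPs also moved the median of all features by 0.46, and the reason was not tested.

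Higher with the deletion was chrIV:13658086-13658444 on the plus strand, over Y45F10C.1, at 8.67, 12.9 and 11.2 CPM in the intact and 23.4, 23.1 and 23.7 CPM in the deletion IPs (log2 fold change 1.04 ± 0.18 SE, edgeR adjusted p = 3.31e-07). It was also the 1 interval called higher in the deletion inputs, at 23, 28.5 and 14.7 CPM against 6.73, 7.35 and 6.3 CPM (1.64 ± 0.57 SE, edgeR adjusted p = 0.0253), a call that ended when either of the intact inputs B and C or either of the deletion inputs A and B was left out. chrIV:6086019-6086136 on the minus strand rose in the IPs from 9.39, 15.2 and 10.9 CPM to 23.2, 26.5 and 30.4 CPM.

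The ratio of IP to input, compared between the WAGO-1 strains, differed for 3 cluster intervals, 1 higher and 2 lower with the deletion (edgeR; background 1.55% and 0.661%). At an unadjusted p under 0.05 there were 5 and 8, and DESeq2 called 1 and 2. Library totals as the scaling gave 6 higher and 2 lower (background 7.41% and 0.378%). The most marked was the shorter rac-3 interval, chrIV:16312640-16312701 on the plus strand, 61 bases long. It stood at 32.5, 40.7 and 44.5 CPM in the intact IPs, 0.667, 0.635 and 0.336 CPM in the deletion IPs, 37, 32.3 and 48.3 CPM in the intact inputs and 53.6, 42.7 and 25.8 CPM in the deletion inputs. The deletion IPs, with 4, 3 and 2 reads, lay apart from all other groups, while the inputs of both strains overlapped (log2 change of enrichment -6.11 ± 0.55 SE, edgeR adjusted p = 3.69e-17).

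The longer rac-3 interval did not share that pattern, since it fell in IP and input together. chrIV:4715980-4720732 had the 1 higher enrichment with the deletion (0.65 ± 0.19 SE, edgeR adjusted p = 0.0449), a call near the threshold that ended when any 1 of the intact or deletion inputs, or deletion IP B or C, was left out. Without any 1 of the 3 intact WAGO-1 IPs the number of higher calls was 7 to 8. The median of all features also moved in these fits, from 0.1 to 0.66 or 0.67, and the share of all features called in them was not worked out. The number of lower calls was 4 without intact IP A or B, and 1 without deletion input A or B or deletion IP A.

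WAGO-3 and WAGO-1 differed in enrichment, IP over their own input, for some of the 142, with 23 higher for WAGO-3 and 7 lower (edgeR; background 12.4% and 15.0%; 16 and 9 with library totals, background 9.72% and 17.2%). Without any 1 of the WAGO-1 or WAGO-3 IP libraries the 23 became 39 to 41, and the share of all features called in these fits was not worked out. The median of all features moved by 0.35 to 0.4 in these fits. The number thus depended on the libraries kept, and the reason was not tested. The 2 proteins were tagged in separate strains, so strain and protein cannot be told apart. The median difference was 0.51 for the cluster intervals and 0.04 for all features.

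The largest gain at high level was chrIV:4715980-4720732, at 599, 583 and 544 CPM in the WAGO-3 IPs and 66.3, 89.3 and 108 CPM in their inputs, but 196, 218 and 224 CPM in the WAGO-1 IPs and 346, 343 and 338 CPM in theirs. It was thus above its input in every WAGO-3 IP and below it in every WAGO-1 IP (difference of log2 enrichment 3.39 ± 0.17 SE, edgeR adjusted p = 1.16e-37). This interval has 1 look-alike of the kind described below. chrIV:13654556-13654767 on the plus strand, over Y45F10C.6, differed by 3.03 ± 0.39 (SE, edgeR adjusted p = 4.12e-11). chrIV:15484099-15485709 on the minus strand, over a noncoding RNA gene, differed by 2.20 ± 0.26 (SE, edgeR adjusted p = 1.27e-12) and has 11 look-alikes of the kind described below.

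Lower for WAGO-3 were the K08F11.6 intervals and the unannotated chrIV:17031209-17031322. The latter was at 5.74, 6.74 and 4.04 CPM in the WAGO-3 IPs and 13.3, 12.4 and 16.3 CPM in their inputs, against 90.3, 104 and 128 CPM and 10.1, 13.2 and 14.7 CPM for WAGO-1. Its inputs in the WAGO-1 and WAGO-3 strains overlapped and its IPs did not (difference -4.32 ± 0.65 SE, edgeR adjusted p = 1.76e-08). The longer K08F11.6 interval stood at 76.5, 72.9 and 71.6 CPM in the WAGO-3 IPs and 66.3, 76.9 and 65.2 CPM in the inputs, which overlapped, for a difference of -1.71 ± 0.26 (SE, edgeR adjusted p = 3.74e-08). These intervals thus exceeded their input in the WAGO-1 IPs of both genotypes and not in the WAGO-3 IPs.

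Several of the abundant intervals had counterparts elsewhere of the same length and strand with close totals, and whether they share reads was not tested. Those of 1240 to 1242 bases came in 2 levels by strand: 3 cluster intervals on the plus strand held 10079 to 10279 counts over the 18 libraries, and 23 such intervals outside the clusters held 8597 to 11501 with a median of 10120. On the minus strand 7 cluster intervals held 2769 to 3187, and 30 elsewhere had a median of 3062 with a range of 563 to 6169. The third most abundant interval, chrIV:13815051-13817387, held 29031 counts, and 10 intervals of its length and strand elsewhere held 28693 to 30150.

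Of 64 cluster intervals with at least 300 counts and 200 bases, 18 had at least 1 look-alike, meaning an interval on the same strand within 1 base in length and 10% in total, and these 18 held 20.7% of the cluster reads. How reads that match several places were assigned was not given in the sources used here, so the values of such intervals are uncertain and cannot be tied to 1 place. The jac-1 interval and the unannotated chrIV:13670846-13672086 and chrIV:14256265-14257506 are the 3 on the plus strand, and they are best not counted as separate observations. The 2 highest intervals, the 21ur-8977 interval and both rac-3 intervals had none or were too short to be examined.

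**Figure D5:**
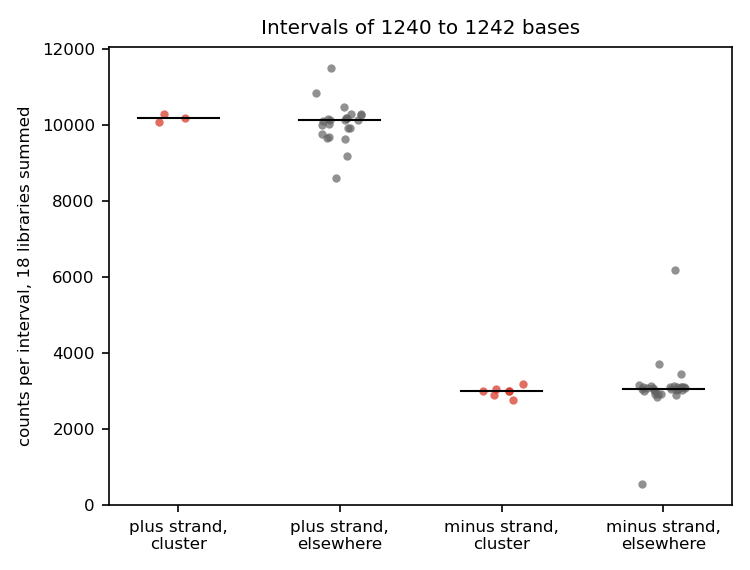
Counts summed over the 18 libraries for each interval of 1240 to 1242 bases, by strand and place (points; lines are medians). The 3 cluster intervals on the plus strand, at 10079 to 10279, lie inside the range of the 23 elsewhere, and the 7 on the minus strand, at 2769 to 3187, near the median of the 30 elsewhere, 3062.

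Genes of the piRNA pathway, counted under their own names in the same table, gave a different result from the intervals. A count under a gene is of small RNAs that map to it and not of its messenger RNA. Of 20 genes listed, 18 were tested, and edgeR called 16 higher and 1 lower with the dpf-3 deletion in the IPs. In the inputs it called 8 higher and 0 lower, with 0 lower at an unadjusted p under 0.05. The background was 30.6% higher and 31.8% lower of all features in the IPs, and 8.61% and 14.9% in the inputs. DESeq2 called fewer, with 11 higher and 1 lower in the IPs and 5 and 0 in the inputs. Library totals gave 18 higher and 0 lower in the IPs and 13 and 0 in the inputs, where 69.2% and 29.1% of all features were higher. Small RNAs of prde-1, snpc-4 and tofu-4, factors for transcription of piRNA genes, rose in the IPs by log2 1.06 ± 0.27, 1.11 ± 0.19 and 1.40 ± 0.17 (SE). Those of pid-1 and tofu-1, which act in processing, rose by 2.22 ± 0.18 and 1.65 ± 0.11. Those of prg-1, the piRNA Argonaute, had a log2 fold change of -0.25 ± 0.07 (SE, edgeR adjusted p = 0.00117), which became 0.89 with library totals, and those of ppw-2, which encodes WAGO-3, rose by 4.46 ± 0.09. All features had a median of 0.07 and the list one of 1.09, and the list was chosen with earlier results of these data known.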

How the data were processed

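Per the submitters' processing notes, reads were processed with cutadapt 2.3, Bowtie 1.2.3, SAMtools 1.9 and HTSeq 0.11.2 on build ce11; the roles, the use of strand and the treatment of reads with several matches were not given in the sources used here. The deposited table holds raw counts per gene or interval for 18 libraries. Rows that name no feature stayed out of library sizes; reads in no feature made up 32.5% to 38.6% of all in IPs and 68.6% to 82.4% in inputs.

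All 75393 features were fitted together with edgeR 4.0.16 in R 4.3.3 (quasi-likelihood test, TMM scaling, filterByExpr with a minimum count of 10, 7 contrasts), and p-values were adjusted over the 11648 features kept at a threshold of 0.05. TMM factors ran from 0.434 to 2.38. DESeq2 1.42.0 was an alternative. The fit was checked on simulated counts in which a set of features was changed between the WAGO-1 IPs. All groups otherwise shared the same mean proportions, so that check does not bear on the scaling between groups. CPM values use TMM scaled library sizes. Shares were compared with two-sided exact permutation tests over 3 against 3 libraries. Intervals and floors cover counting error only. Genes, with positions and no strand, came from RefSeq.

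Intervals were named if among the 10 of highest mean CPM, or the 5 of highest CPM overlapping a piRNA gene on either strand (a planned limit to the own strand could not be applied), or, per contrast and direction, up to 5 of largest change among those called, that reached 20 CPM in either group and whose groups were fully apart. The cluster intervals and gene list were chosen with earlier results of these data known, and the comparison by piRNA gene overlap was extended after seeing the data. Other settings tried were other scalings, filters, DESeq2, a replicate block, only the groups compared, single windows and single libraries or intervals left out.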

Additional observations from a re-analysis of the deposited data

Results flagged for a closer look

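In 2 contrasts, enrichment (IP over input), tested as an interaction in the quasi-likelihood fit of edgeR, differed between strains for some cluster intervals. With the dpf-3 deletion the IP to input ratio of WAGO-1 was higher for 1 and lower for 2 of 142, against 1.55% and 0.661% of all features, so the number is near the background. Among those named, it differed by -6.11 on the log2 scale for chrIV:16312640-16312701 on the plus strand, over rac-3, and by 0.65 for chrIV:4715980-4720732 on the plus strand.

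Between WAGO-3 and WAGO-1 the ratio was higher for WAGO-3 at 23 intervals and lower at 7, against 12.4% and 15.0% of all features. The 23 became 39 to 41 without any 1 of the IP libraries of either protein, with no share over all features worked out for those fits. They became 16 with library totals as the scaling. Among the named intervals on the plus strand, the difference was 4.42 for chrIV:5901582-5901952, 3.39 for chrIV:4715980-4720732, 3.03 for chrIV:13654556-13654767, 2.02 for chrIV:13658086-13658444 and -0.82 for chrIV:13815051-13817387. On the minus strand it was 2.20 for chrIV:15484099-15485709, -5.22 for chrIV:6189598-6189640, which overlaps a piRNA gene and had no read in the WAGO-3 IPs, -4.32 for chrIV:17031209-17031322, -1.98 for chrIV:4726885-4726994 and -1.71 for chrIV:4726995-4728022. The value for chrIV:5901582-5901952 rests on few input reads and passed the threshold only with both WAGO-1 inputs B and C. That for chrIV:6189598-6189640 passed it only with WAGO-1 IP C, and that for chrIV:13658086-13658444 missed it without WAGO-1 input B or C or any 1 of the WAGO-3 inputs.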

How the results depend on the processing

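Of 2771 alternative values for the called changes of the named intervals, 2662 kept their direction and side of the threshold. Another 92 missed the threshold and 17 reversed. Intervals named by change were chosen for large, called and fully separated changes in the main fit, so this stability was partly fixed by the choice. The values are refits of the same intervals and libraries, and not separate checks. The reversals were in 6 intervals. Library totals gave 6 of them, all counted reads 4, each intact WAGO-1 IP left out 2, and no filter 1. Library totals, all counted reads and leaving out an intact WAGO-1 IP moved the median of all features in deletion against intact IP by 1.12, 1.25 and 0.46. In that comparison chrIV:17031209-17031322 went from -0.26 to 0.88 with totals, 1.01 with all counted reads, 0.03 with no filter and 0.13, 0.16 and 0.36 without intact IP A, B or C, against as low as -0.3 without a deletion IP. There chrIV:4726995-4728022 went from -0.29 to 0.85, 0.98 and, without an intact IP, 0.31, 0.12 and 0.08, against as low as -0.3 without a deletion IP, chrIV:4715980-4720732 from -1.03 to 0.11 and 0.24, and chrIV:13815051-13817387 from -1.17 to 0.10 with all counted reads. With totals, chrIV:16314470-16314850 and chrIV:15484099-15485709 went from 1.33 to -0.12 and from 0.53 to -0.92 in WAGO-1 IP against input, and chrIV:13815051-13817387 from 1.36 to -0.27 for WAGO-3.

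Shares of counts depended most on the 2 highest intervals and on the denominator. All share values here are log2 ratios of group means in the order WAGO-1 IP to input (W1), the same in the deletion (D), WAGO-3 IP to input (W3), deletion to intact WAGO-1 IP (DIP), deletion to intact input (DIN), and WAGO-3 IP to WAGO-1 IP (W31). The cause of each change was not tested. As shares of feature counts they were 0.367, 0.49, 0.632, -0.995, -1.12 and -0.271. Without the highest interval, all but W3 became 0.28, 0.35, -0.863, -0.933 and -0.15. Without the 2 highest, an alternative added after seeing the data, the 6 were 0.175, 0.193, 0.52, -0.781, -0.799 and -0.0332. Without intervals over annotated genes they were 0.426, 0.865, 0.745, -0.828, -1.27 and -0.177, and as shares of all counted reads 1.57, 2.36, 1.82, -0.868, -1.65 and -0.19. The first window alone gave 0.661, -1.06, -1.32 and -0.34 for D, DIP, DIN and W31, and the second window alone gave -0.228 for W31.

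As shares of interval counts the main values were 0.129, -0.0431, -0.0623, 0.381, 0.553 and 0.173. Without the highest interval they were 0.0414, -0.183, 0.513, 0.738 and 0.294 for all but W3. Without the 2 highest they were -0.0634, which reversed, -0.34, -0.175, 0.595, 0.871 and 0.411. Without intervals over annotated genes D and W3 reversed to 0.332 and 0.0504, and the last 3 were 0.548, 0.404 and 0.267. The first window alone reversed D to 0.127 and gave -0.00228, 0.317, 0.353 and 0.104 for W3, DIP, DIN and W31, and the second window alone gave 0.216 for W31. Leaving out single libraries moved D between -0.0942 and 0.0149, the reversal being without deletion input B. For the share of cluster counts in intervals that overlap a piRNA gene, leaving out the 21ur-8977 interval, also added after seeing the data, gave -4.11, -4.48, -4.71, 1.53, 1.89 and -0.0215 in place of -1.21, -4.03, -3.21, -1.61, 1.21 and -2.08, so DIP reversed.

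Counts of calls moved by over 1.5 times as follows. Library totals as the scaling gave 40, 24 and 56 higher in the WAGO-1, deletion and WAGO-3 IPs against input, and 20, 6 and 6 higher with the deletion in IP, input and enrichment. All counted reads as the scaling gave 26 higher in the deletion IP, 28 with higher enrichment in the deletion and 14 with higher WAGO-3 enrichment. A minimum count of 30, which tests fewer intervals, gave 14, 14 and 15 lower in the 3 IPs, 55 higher in the WAGO-3 IP, 60 lower and 2 higher in the deletion IP, and 0 higher and 1 lower in enrichment with the deletion. No filter, which tests all 1434 cluster intervals with a read and not only the 142, gave 199 lower and 16 higher in the deletion IP. It also gave 0 higher in the deletion input and 4 with higher enrichment. The share of all features called was worked out for the main fit and library totals only. Counts from the other settings, and with single libraries left out, therefore cannot be set against a background. DESeq2 gave 2 and 0 higher in the deletion IP and input. Fitting only the groups compared gave 0 higher in the deletion input, 11 with higher enrichment in the deletion and 42 with higher WAGO-3 enrichment. Leaving out single libraries moved the 5 higher in the deletion IP between 4 and 9, the 1 in the deletion input between 0 and 1, the 1 and 2 changed in enrichment between 0 and 8 and between 1 and 4, and the 23 with higher WAGO-3 enrichment between 18 and 41.

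Little sign of pairing by the letters A, B and C was seen. Deviations of same-letter IP and input correlated between -0.0153 and 0.0202, and those of the WAGO-1 genotypes between 0.00632 and 0.144. With inputs this shallow, low correlations cannot show that same-letter libraries came from separate extracts. With the letter as a replicate block, the WAGO-1 IP had 84 higher and 28 lower cluster intervals, and the 1 higher enrichment with the deletion became 0, while no other count of calls moved by over 1.5 times. Among named intervals the block lost 1 call, that of chrIV:4715980-4720732. Inputs of 88761 to 517278 feature counts limit what was detectable: over a group, 3 counts correspond to 2.06 CPM in the intact WAGO-1 input, 4.04 CPM in the deletion input and 2.97 CPM in the WAGO-3 input.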
